A study of Mus musculus with 8 samples.

Results

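The 10 enzymes described here carry out bile acid synthesis and conjugation in the mouse liver. They are Cyp7a1 and Cyp8b1 of the classic pathway, Cyp27a1 and Cyp7b1 of the alternative pathway, Cyp2c70, the ring-modifying enzymes Hsd3b7 and Akr1d1, and Amacr, Slc27a5 and Baat, which act on the side chain. They were taken as every probe set that the platform's gene table assigns to 1 of these symbols alone, which gave 16 probe sets among the 34945 that have 1 gene. Where a gene had several probe sets, the 1 with the highest mean stood for it. All 10 enzymes lay above the median of all probe sets in mean log2 signal and stood among the 12112 of 18193 genes kept, as did 14 of their 16 probe sets.

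Liver RNA was read on 8 Affymetrix mouse arrays, 1 for each of 2 arms on days 0, 1, 2 and 5 after TCPOBOP (3 mg/kg by gavage), an agonist of the constitutive androstane receptor CAR and a hepatocyte mitogen. All mice carried floxed Met and a tamoxifen-inducible Cre, written Metff/ff:ERCre+/+ in the labels. Mice of the MET KO + EGFRi arm received 5 daily injections of tamoxifen (100 µl at 10 mg/ml), which deletes MET systemically rather than in hepatocytes alone. From 1 day before TCPOBOP this arm ate canertinib, an EGFR inhibitor, at an intended 80 mg/kg per day. The control arm was littermates injected with corn oil, with no tamoxifen and no canertinib diet. MET loss, tamoxifen and canertinib therefore cannot be told apart. The day 0 arrays are labelled as 0 days after TCPOBOP, and whether these mice were given it is not stated in the sources used here. A change from day 0 is therefore a change over these labelled times. Age, sex, the Cre's promoter and the number of mice in a pool are not stated in the sources used here. Each array held pooled RNA, so no group had a replicate.

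The median signal ran from 235 to 241 in the MET KO + EGFRi arrays and from 224 to 251 in the control arrays, and the ratio of 3' to 5' actin probe sets from 1.57 to 2.36 in MET KO + EGFRi and from 1.58 to 1.90 in control. Both Met probe sets gave signals in every array (1049 to 2034 in MET KO + EGFRi and 926 to 1444 in control on the stronger one). The deleted exon is not given, so they check nothing. Cyp2b10, the standard CAR target, read 356 in MET KO + EGFRi and 444 in control on day 0 and at least 32027 in the other 6 arrays. Hepatocyte genes were present throughout, with albumin (Alb) between 38805 and 69876 in MET KO + EGFRi and between 37254 and 77082 in control. In whole liver, fewer hepatocytes and less RNA per hepatocyte cannot be told apart.

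Bile acids are made from cholesterol in hepatocytes. In the classic pathway Cyp7a1 starts synthesis and sets its rate, and Cyp8b1 decides how much of the product becomes cholic acid. In the alternative pathway Cyp27a1 oxidises the sterol side chain in mitochondria and Cyp7b1 hydroxylates the resulting oxysterols. In mice Cyp2c70 turns chenodeoxycholic acid into muricholic acids. Hsd3b7 and Akr1d1 rebuild the steroid ring for both pathways. Amacr prepares the side chain for shortening in peroxisomes, and Slc27a5 and Baat activate bile acids and join them to taurine or glycine. Returning bile acids lower Cyp7a1 and Cyp8b1 through the receptor FXR (Nr1h4), its target SHP (Nr0b2), and intestinal FGF15, which acts on the receptor pair Fgfr4 and Klb.

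On day 0 the hydroxylases Cyp7a1 of the classic pathway and Cyp7b1 of the alternative pathway stood on opposite sides of control. Cyp7a1 was at 0.38 and Cyp7b1 at 5.77 times the control level in MET KO + EGFRi liver, while Cyp8b1 and Cyp27a1 were at 0.99 and 0.96 times. By day 5 Cyp7a1 stood at 1.55 and Cyp7b1 at 1.15 times control. The other 6 enzymes stayed between 0.68 and 1.68 times control on every day. Folds are on the log2(signal + 71) scale, where 71 is the lower quartile of all values. On day 0, 2 of 10 enzymes were at least 2-fold apart, against 4.82% of the 12112 genes. On day 1 there were 0 (5.52% of genes), on day 2 there was 1, Cyp8b1 (4.91%), and on day 5 there were 0 (4.41%). Over all 8 arrays, 3 of 10 enzymes (Cyp7b1, Cyp8b1 and Cyp7a1) had a range of at least 2-fold, against 28.1% of genes. These single-day counts and ranges rest on 1 array per arm and carry no p-value.

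**Figure D1:**
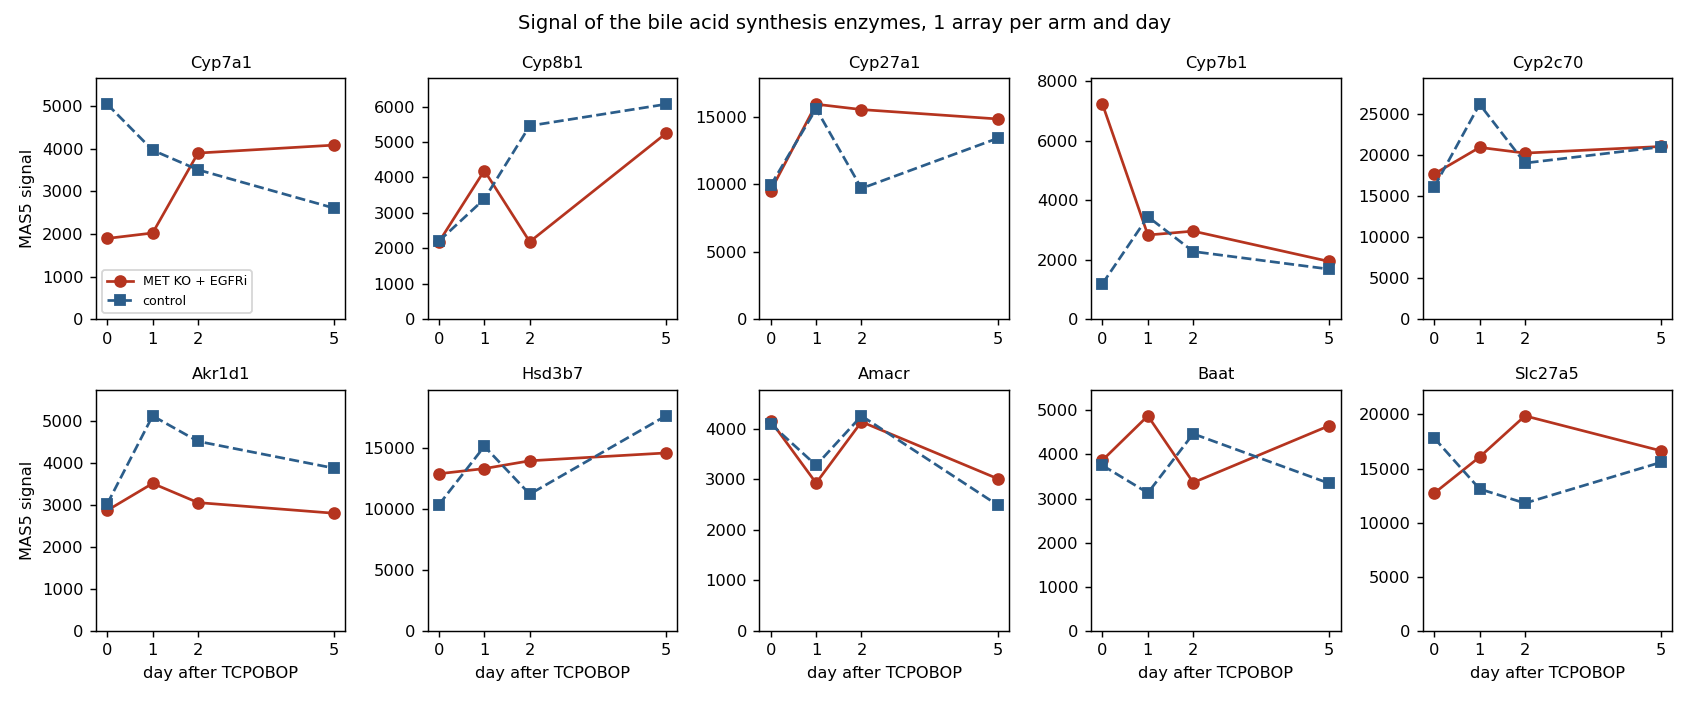
MAS5 signal (linear axis from 0) of the 10 enzymes against day after TCPOBOP, with 1 point per array, MET KO + EGFRi as red circles and control as blue squares. Cyp7b1 reads 7234 in MET KO + EGFRi and 1194 in control on day 0, and the arms lie close together from day 1 on.

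Cyp7a1, on probe set 1438743_at, had signals of 1895, 2023, 3900.3 and 4087 in the MET KO + EGFRi series (days 0, 1, 2 and 5, the order used for all signals here). In control livers it had 5047, 3967, 3508 and 2607. The MET KO + EGFRi arrays were low on days 0 and 1 and high on days 2 and 5, while the control arrays were highest on day 0 and lowest on day 5, so the arms overlapped and crossed between days 1 and 2. The log2 differences between arms were -1.38, -0.95, 0.15 and 0.63 on the 4 days. The weaker probe set 1422100_at read 541, 732, 857 and 745 in MET KO + EGFRi and 1895, 945, 1104 and 564 in control. It kept the day 0 gap (-1.68) and the higher level on day 5 (0.36), but at -0.34 on day 2 it had not yet crossed.

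Averaged over the 4 days, Cyp7a1 differed between arms by -0.39 on the log2 scale (standard error 0.31, limma adjusted p = 0.692), with a 95% interval from -1.10 to 0.33. Differences of opposite sign entered that mean. It was -0.05 without either day 0 array and -0.73 without either day 5 array.

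Cyp8b1, on its single probe set 1449309_at, had 2183, 4194, 2184 and 5239.8 in MET KO + EGFRi livers and 2205, 3393, 5457 and 6065.5 in control livers on days 0, 1, 2 and 5. The arms started level and were both high on day 5. They were apart on day 2, when the MET KO + EGFRi array stood at its day 0 level and the control array near its highest, a log2 difference of -1.29. Cyp8b1 had the largest fitted change from day 0 of the 10 enzymes, 0.91 as the mean of days 1, 2 and 5 over both arms (standard error 0.28, 95% interval 0.26 to 1.56, limma adjusted p = 0.323). On day 5 alone it was 1.33 (standard error 0.34, adjusted p = 0.215). Neither passed the threshold of 0.05 over all genes.

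Promoters were found for 5 of the 10 enzymes in a RefSeq table on GRCm38.p6, and the 250 bases before the gene start were searched on both strands for TCAAGGNCA (NR5A2), CAAAGTCCA (HNF4A), TTATGTAA (the D-box read by DBP) and CACGTG (the E-box). These motifs were found in 1.39%, 0.384%, 0.819% and 6.02% of 32851 such windows. Cyp8b1 and Cyp2c70 held CAAAGTCCA, 67 and 64 bases before the start, and Cyp27a1, Akr1d1 and Hsd3b7 held none of the 4 motifs. The 2 windows with a match are shown because the probe set used for Hnf4a stood above control on every day (below), with the match in capitals. The mean differences of Cyp8b1 and Cyp2c70 between arms were -0.30 and -0.02, and the part of Hnf4a in them was not tested. The window of Cyp8b1 lies at chr9:121916306-121916555 on the minus strand, and that of Cyp2c70 at chr19:40187287-40187536 on the minus strand. A match of letters does not show that a factor binds there.
Cyp8b1: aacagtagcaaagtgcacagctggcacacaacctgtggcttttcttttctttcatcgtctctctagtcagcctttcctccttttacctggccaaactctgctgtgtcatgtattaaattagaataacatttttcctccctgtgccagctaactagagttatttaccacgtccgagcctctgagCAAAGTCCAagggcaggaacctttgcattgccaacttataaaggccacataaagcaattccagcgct
Cyp2c70: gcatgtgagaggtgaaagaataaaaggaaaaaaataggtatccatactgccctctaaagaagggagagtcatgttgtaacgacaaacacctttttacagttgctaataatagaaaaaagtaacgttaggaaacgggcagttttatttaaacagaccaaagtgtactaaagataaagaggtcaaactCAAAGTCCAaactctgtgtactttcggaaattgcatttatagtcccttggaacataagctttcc

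Cyp7b1, on probe set 1421074_at, had 7234, 2832, 2962.5 and 1940.4 in MET KO + EGFRi livers and 1194, 3447, 2276 and 1682 in control livers over the 4 days. The day 0 array of MET KO + EGFRi was the highest of all 8 and the day 0 array of control the lowest, and from day 1 on the arms were within 0.37 of each other on the log2 scale. Probe set 1421075_s_at, which can also bind related RNAs, read 3934, 1515, 1629.8 and 1549 in MET KO + EGFRi and 538, 1773, 1292 and 1174.5 in control, with the same day 0 gap (log2 difference 2.72, against 2.53 on the stronger probe set). The third, 1446995_at, stayed between 82.5 and 175 in all arrays and did not pass the filter. The range of Cyp7b1 over the 8 arrays, 2.53 on the log2 scale, was as large as or larger than that of 98.6% of genes kept. Its mean difference between arms was 0.71 (standard error 0.40, limma adjusted p = 0.543) and was 0.10 without either day 0 array.

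Cyp27a1, on probe set 1417590_at, had 9546, 15955, 15558.5 and 14862 in MET KO + EGFRi livers and 9940.3, 15620.0, 9705.5 and 13426 in control livers. Both arms were low on day 0, and control was low again on day 2. Its fitted change from day 0 was 0.52 (standard error 0.18, 95% interval 0.10 to 0.94, limma adjusted p = 0.388), and 0.30 after quantile normalization or with the mean of its probe sets. The largest gap between arms, 0.68, was on day 2. Its other probe set, 1457665_x_at, read 31.5 to 53 in all 8 arrays, below the filter.

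On day 2 the whole set of 10 hepatocyte markers stood higher in MET KO + EGFRi, by a median of 0.64, against -0.13 to 0.01 on the other days. Their summed signal ran from 304764 to 447046 in MET KO + EGFRi and from 291231 to 478754 in control, and none was at 0. After quantile normalization of the arrays the day 2 median of these markers was 0.27 and the day 2 differences of Cyp27a1 and Slc27a5 (0.68 and 0.75 before it) were 0.65 and 0.66. The part of this shift in the day 2 values of the enzymes was not tested.

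Cyp2c70 (1424273_at) had 17658, 20881.5, 20188 and 20993 in MET KO + EGFRi livers and 16075, 26131, 18977.5 and 20938 in control livers. Apart from the high control array of day 1 the arms ran together, with log2 differences from -0.32 to 0.13. Both arms were above day 0 on all 3 later days, but after quantile normalization MET KO + EGFRi was below its day 0 level on all 3, so no direction is given for that arm.

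Hsd3b7, which oxidises the steroid nucleus after the hydroxylation by Cyp7a1 or Cyp7b1, had 12881, 13305, 13944 and 14586 in MET KO + EGFRi livers on probe set 1416968_a_at. In control livers it had 10351, 15130.2, 11207 and 17629. The MET KO + EGFRi arrays differed little among themselves (range 0.18 on the log2 scale), while control alternated over a range of 0.76 and lay on both sides of them. Akr1d1, a reductase of the steroid ring, had 2871, 3514, 3057 and 2803 in MET KO + EGFRi on probe set 1425771_at, and 3026, 5125, 4518 and 3877 in control. Akr1d1 read below control on 4 of 4 days (10.3% of genes), slightly on day 0 (-0.07) and by 0.46 to 0.55 on days 1, 2 and 5, although the highest MET KO + EGFRi array lay above the lowest control array.

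Akr1d1 was the only 1 of the 10 enzymes with the same sign of difference on all 4 days, which 20.2% of genes showed. Its mean difference between arms was -0.41 (standard error 0.14, 95% interval -0.72 to -0.09, limma adjusted p = 0.292), the smallest p of the 10 for that comparison. The weaker probe set 1455100_at read 1479, 2327, 1543 and 1480.2 in MET KO + EGFRi and 2434, 2926.5, 3234.5 and 1318 in control. It was lower on days 0, 1 and 2 (-1.03 on day 2) but higher on day 5 (0.16), so the probe sets differed in size on day 0 and in sign on day 5.

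Amacr, the racemase that readies side chains for peroxisomal oxidation, had 4160.1, 2929, 4143 and 3016 in MET KO + EGFRi livers (1417208_at) and 4101, 3280.3, 4261 and 2493 in control livers. Both arms were low on days 1 and 5 and high on days 0 and 2, and the arms differed by at most 0.27 on the log2 scale. The fitted change on day 5 was -0.58 (standard error 0.18, 95% interval -0.999 to -0.16, limma adjusted p = 0.318). Slc27a5, the ligase that activates bile acids returning to the liver, had 12725, 16068, 19872 and 16638 in MET KO + EGFRi (1449112_at) and 17817, 13112, 11799 and 15583 in control. Its MET KO + EGFRi arrays were lowest on day 0 and highest on day 2, and its control arrays the reverse.

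Baat, which conjugates bile acids to amino acids, was read best by 1419002_s_at, which can bind related RNAs. It had 3869, 4875, 3361 and 4653 in MET KO + EGFRi livers and 3750.1, 3127, 4468 and 3342 in control livers. The arms alternated, with MET KO + EGFRi higher on days 1 and 5 by 0.63 and 0.47 and lower on day 2 by 0.40. The gene-specific probe set 1419001_at read 1953, 1569.6, 1666 and 1187 in MET KO + EGFRi and 1885, 1249.6, 1549 and 1433 in control. On it both arms were below day 0 on all 3 later days, and the alternation was not seen, since day 2 read 0.10 and day 5 -0.26.

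**Figure D2:**
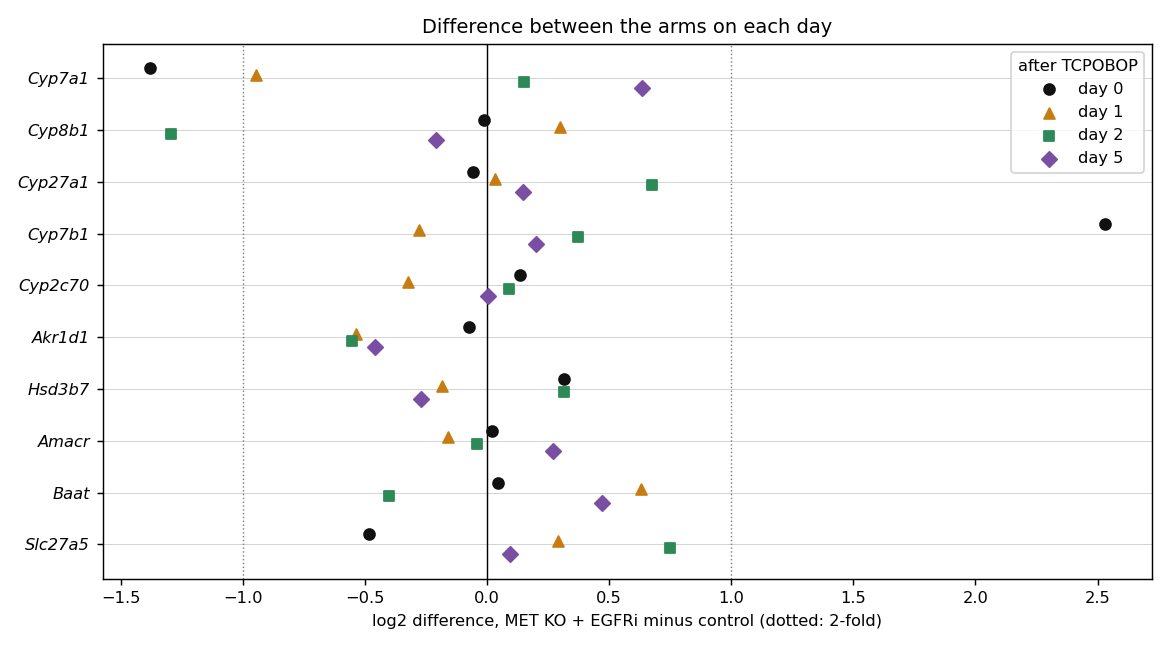
Log2 difference between the arms, MET KO + EGFRi minus control (x axis), for each enzyme (rows) on days 0, 1, 2 and 5 (symbols), with dotted lines at 2-fold. Only Cyp7a1 on day 0 (-1.38), Cyp7b1 on day 0 (2.53) and Cyp8b1 on day 2 (-1.29) lie beyond 2-fold.

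Against day 0 of the same arm, 1, 2 and 3 enzymes lay at least 2-fold away in MET KO + EGFRi on days 1, 2 and 5, where 3.36%, 4.22% and 5.52% of genes did. They were Cyp7b1 (lower on all 3 days), Cyp7a1 (higher on days 2 and 5) and Cyp8b1 (higher on day 5). In control 1 enzyme lay that far on each day, where 4.85%, 5.32% and 5.39% of genes did, namely Cyp7b1 on day 1 and Cyp8b1 on days 2 and 5, all higher.

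The change from day 0 ran in opposite directions in the arms for 3 of 10 enzymes on all 3 later days, against 9.86% of genes. Cyp7a1 was above day 0 in MET KO + EGFRi by 0.09, 1.01 and 1.08 on days 1, 2 and 5, and below it in control by 0.34, 0.52 and 0.93. Cyp7b1 was below day 0 in MET KO + EGFRi by 1.33, 1.27 and 1.86 and above it in control by 1.48, 0.89 and 0.47. Slc27a5 was above day 0 in MET KO + EGFRi by 0.33, 0.64 and 0.38 and below it in control by 0.44, 0.59 and 0.19. For Cyp7a1 and Cyp7b1 the mean changes of the arms were also at least 2-fold apart, a pattern of 1.9% of genes. Both passing probe sets of each gene showed it, and it was seen with no pseudocount, the median as pseudocount, quantile normalization, the mean of probe sets and no filter.

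**Figure D3:**
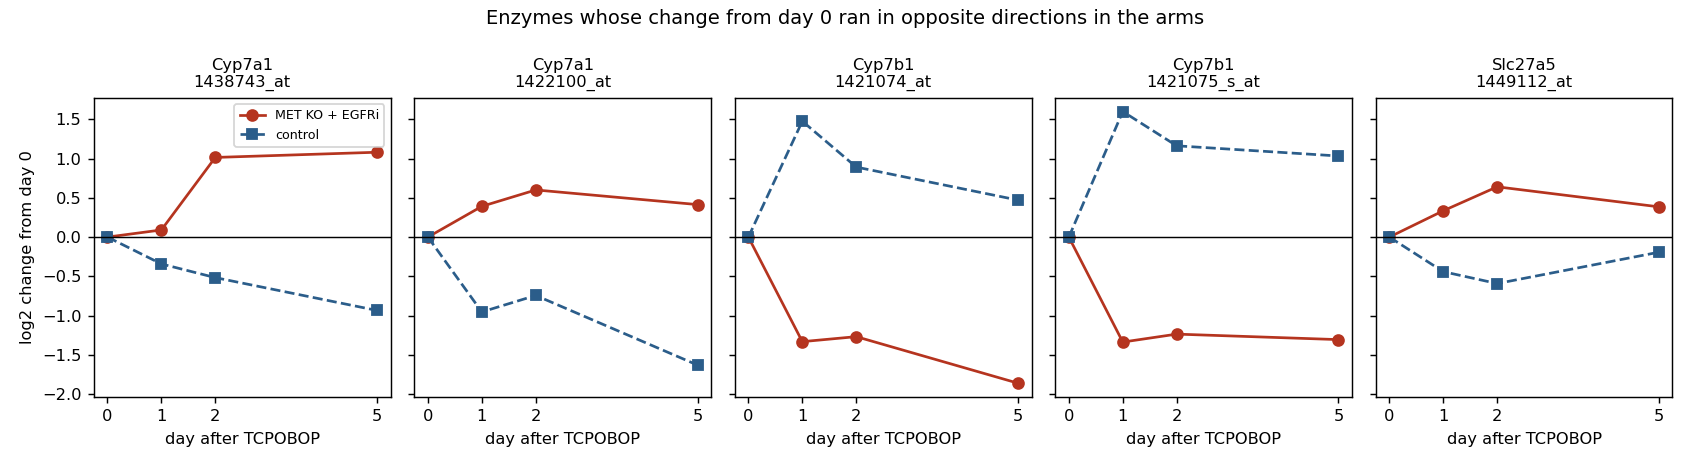
Log2 change from day 0 (y axis) by day (x axis) for each probe set of Cyp7a1, Cyp7b1 and Slc27a5 that passed the filter, with MET KO + EGFRi as red circles and control as blue squares. The lines leave 0 in opposite directions in every panel, furthest apart for Cyp7b1.

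The limma interaction, which tests whether the mean change from day 0 differs between arms, was -2.43 for Cyp7b1 (standard error 0.35, 95% interval -3.27 to -1.60). Its unadjusted p of 0.000237 became an adjusted p of 0.568 over 12112 genes. For Cyp7a1 it was 1.33 (standard error 0.58, interval -0.04 to 2.69, adjusted p = 0.999) and for Slc27a5 0.86 (standard error 0.38, interval -0.03 to 1.75, adjusted p = 0.999). The test called 0 of 12112 genes, with 543 at an unadjusted p under 0.05. It has 2 residual degrees of freedom and hangs on the 2 day 0 arrays, without either of which it cannot be fitted. Leaving out any other array gave -2.57 to -2.25 for Cyp7b1 and 0.98 to 1.77 for Cyp7a1.

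Across the other fitted comparisons limma called 0 of the 10 enzymes. Between arms averaged over days, 0.578% of genes were called, and 1 enzyme of 10 (Akr1d1) had an unadjusted p under 0.05, as did 12.1% of genes. For the mean of days 1, 2 and 5 against day 0, 0.487% of genes were called, and 2 enzymes of 10 (Cyp8b1 and Cyp27a1) had an unadjusted p under 0.05, as did 10.1% of genes. For days 1, 2 and 5 taken singly 0.124%, 0.0578% and 0.33% of genes were called. At an unadjusted p under 0.05 there were 3, 0 and 3 enzymes on these days, against 7.62%, 7.7% and 10.7% of genes. The median difference of the 10 enzymes was 0.03 between arms (0.00 over all genes) and 0.18 from day 0 (-0.02 over all genes), with 8 of 10 positive for the change from day 0. The hepatocyte markers had a median change of 0.33 with 9 of 10 positive. After quantile normalization the change from day 0 had a median of 0.022 with 6 of 10 positive for the enzymes, and -0.063 with 4 of 10 positive for the hepatocyte markers, so no direction is given for the enzymes as a group. These p-values measure how pools of different days scatter about the additive fit. No spread between animals was measured.

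**Figure D4:**
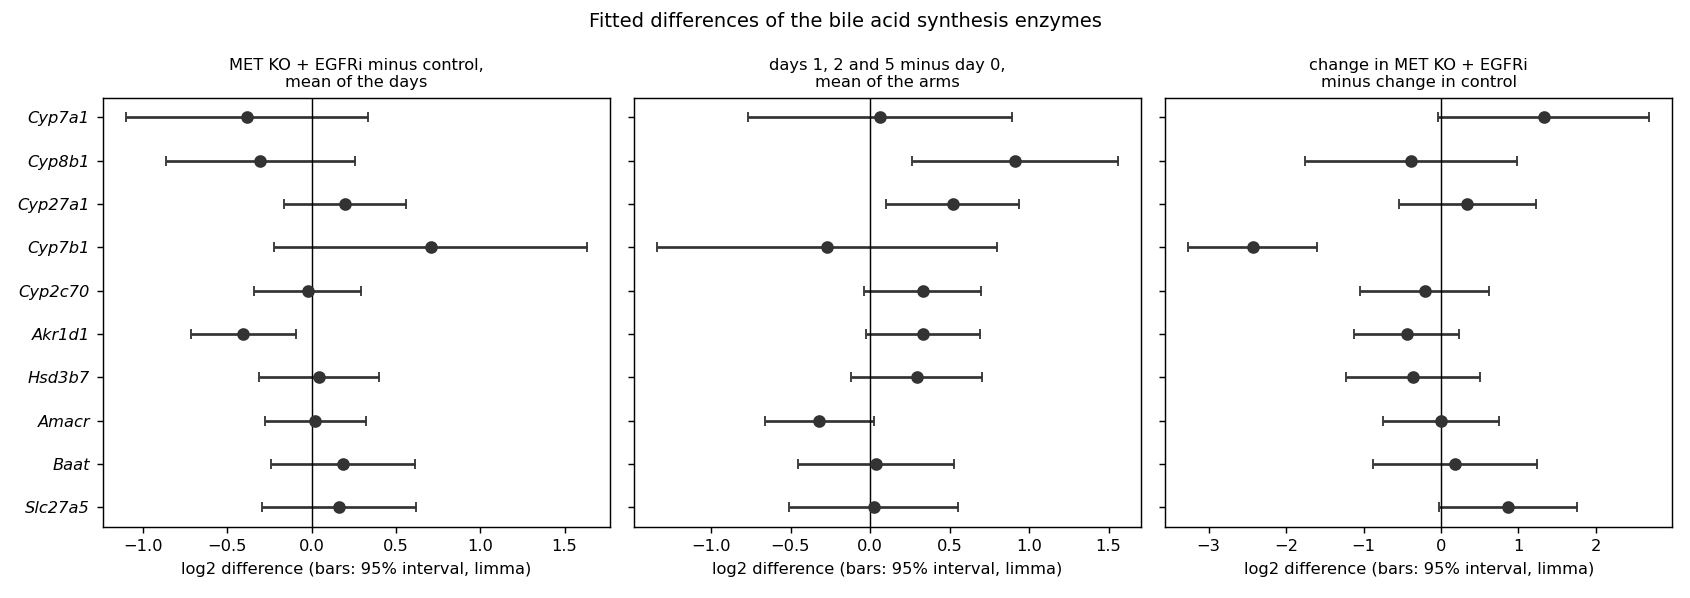
Fitted log2 differences of the 10 enzymes with 95% intervals (bars) between arms, from day 0, and for the difference between arms in the change from day 0. The interval of Akr1d1 lies below 0 in the left panel, those of Cyp8b1 and Cyp27a1 above 0 in the middle panel and that of Cyp7b1 below 0 in the right panel, and none has an adjusted p under 0.05.

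The other enzymes and carriers of the pathway, 10 genes, also had 0 called between arms or from day 0 (2 and 4 at an unadjusted p under 0.05, against 12.1% and 10.1% of genes), with medians of -0.16 and 0.19. Cyp39a1, an oxysterol hydroxylase, had a change from day 0 of 0.78 (limma adjusted p = 0.357). Acox2, the peroxisomal oxidase that shortens the side chain, read 5632, 6168, 5650.0 and 5402 in MET KO + EGFRi and 2650.4, 5707, 6581 and 6193 in control. As with Cyp7b1, its gap (log2 1.07) was on day 0 alone. Cyp2a12, which in mice hydroxylates returning bile acids, and Abcd3, the peroxisomal carrier of side-chain intermediates, read below control in MET KO + EGFRi at all 4 times. Their mean differences were -0.59 and -0.57 (limma adjusted p = 0.115 and 0.128).

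Of 15 regulators 0 were called between arms or for the mean change from day 0 (3 and 3 at an unadjusted p under 0.05, against 12.1% and 10.1% of genes). Nr0b2 (SHP) had 1076.5, 685, 1661 and 986 in MET KO + EGFRi livers and 784, 1967, 1943 and 2114 in control livers. It was above control on day 0 and below control on days 1, 2 and 5. Cyp7a1, on its stronger probe set, was below control on days 0 and 1 and above it on days 2 and 5. The part of Nr0b2 in the Cyp7a1 values was not tested. The mean difference of Nr0b2 was -0.57 (limma adjusted p = 0.48). Hnf4a, a receptor known to drive Cyp7a1 and Cyp8b1, had 18500.0, 18354, 19664 and 16189.5 in MET KO + EGFRi and 10713, 12089, 9895 and 14157 in control. The arms did not overlap, which held for 6.25% of genes, and the mean difference was 0.64 (standard error 0.16, adjusted p = 0.176). Its 3 weaker probe sets had mean differences of 0.46 to 0.54 and were higher on 4, 3 and 3 of 4 days.

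Nr5a2 (LRH-1), which cooperates with HNF4A on the same genes, read below control at all 4 times, with a mean difference of -0.31 (adjusted p = 0.363). Of its other probe sets that passed the filter, 1 had -0.43 and was lower on all days, and 1 had -0.088 and was higher on day 2. Nr1h4 (FXR), Klb and Fgfr4 had mean differences of 0.02, -0.13 and -0.16. Differences of opposite sign entered the mean of Nr1h4. It was below control on days 0, 1 and 2 (1729 against 2332 on day 1) and above it on day 5 (2169 against 1309). Nr1i3, which encodes CAR, read 1408.5, 863, 790.0 and 1708.5 in MET KO + EGFRi and 3141, 2065, 1783.5 and 1887 in control (mean difference -0.89, adjusted p = 0.131). Ppara, the fatty acid receptor, had a mean change from day 0 of -0.88 (adjusted p = 0.155). On day 5 alone its change was -1.65 (limma adjusted p = 0.0481), a call lost with any 1 array left out (adjusted p = 0.0654 to 0.236). It was also lost with no pseudocount, quantile normalization, the mean of probe sets, no filter and no trend (0.0516 to 0.190).

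**Figure D5:**
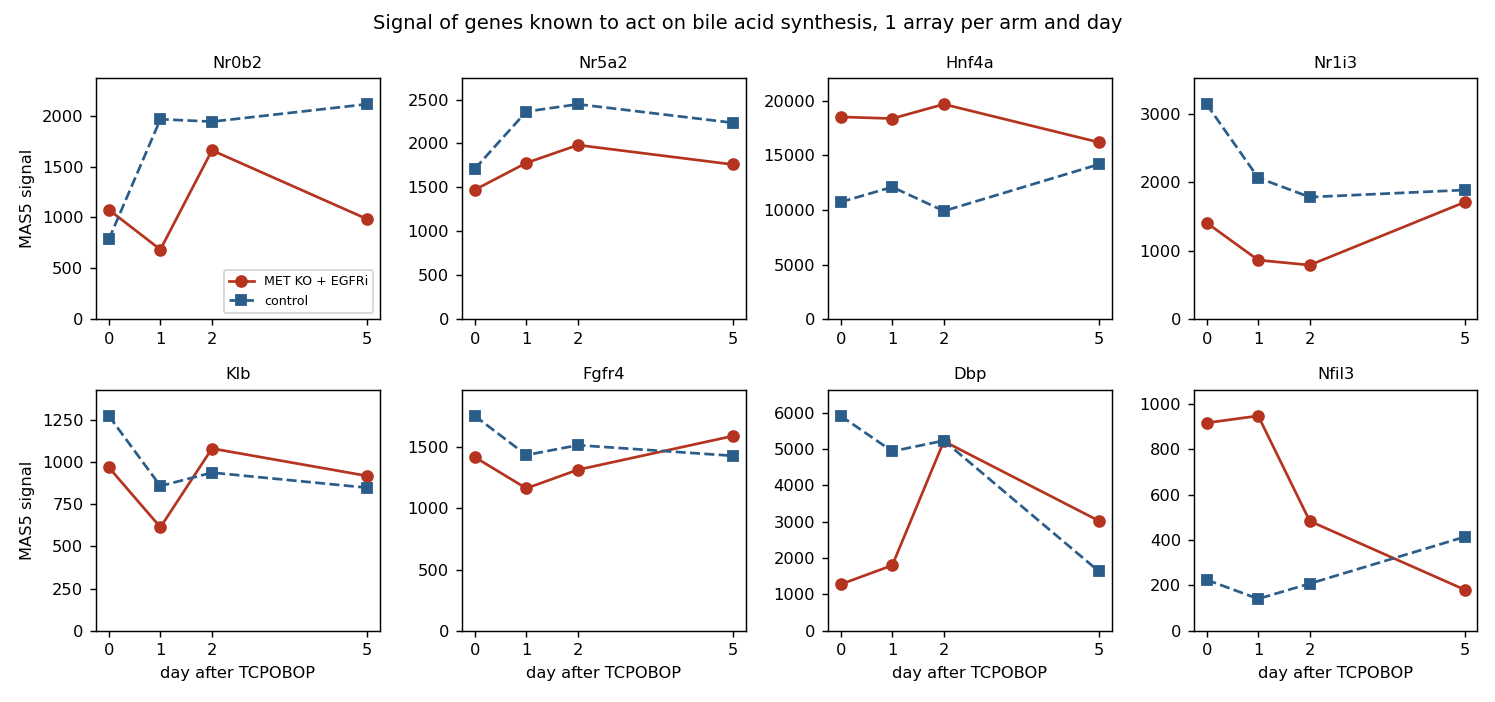
MAS5 signal (linear axis from 0) of 8 genes known to act on bile acid synthesis or on the clock output that reaches it, by day after TCPOBOP, with 1 point per array, MET KO + EGFRi as red circles and control as blue squares. On the probe set plotted, Hnf4a in MET KO + EGFRi lies above control on every day. Dbp reads 1278 in MET KO + EGFRi and 5908 in control on day 0.

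Cyp7a1 is transcribed with a strong daily rhythm, and in the rat the clock output factor DBP is known to act on it. Dbp had 1278, 1799, 5211 and 3025 in MET KO + EGFRi livers and 5908, 4935, 5226 and 1639.7 in control livers. Like Cyp7a1 it was below control on days 0 and 1 and above it on day 5. Nfil3, a repressor at the same D-box, had 916, 947, 483 and 181 in MET KO + EGFRi and 225, 141, 208 and 414 in control, the reverse order. On the probe sets used, the clock genes Nr1d1, Per1 and Clock were close between arms on day 0. They read 1207.6, 943.4 and 90.2 in MET KO + EGFRi and 1262.5, 967.2 and 101.6 in control. Averaged over days their differences were -0.13, 0.71 and -0.50. The day 0 values of Clock lay near the pseudocount of 71. Its other probe sets, below the filter, read 190, 173.9 and 66.3 in MET KO + EGFRi and 124.9, 74.7 and 31.6 in control on day 0. The median day 0 difference of the 13 clock genes that passed the filter was -0.06. Among all clock genes with a probe set, 5 of 15 were higher in MET KO + EGFRi on day 0, and none was at 0. Their summed signal ran from 16600 to 24029 in MET KO + EGFRi and from 13260 to 23611 in control. The mean difference was -0.68 for Dbp and 1.01 for Nfil3 (limma adjusted p = 0.594 and 0.433). Ciart, a clock repressor, was higher on 4 of 4 days, by a mean of 1.33 (limma adjusted p = 0.103). On day 0 Ciart read 761 in MET KO + EGFRi and 151 in control. The hour of harvest is not stated in the sources used here, and its part in the Cyp7a1 values was not tested.

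Acute phase genes also differed on day 0, when 20 of 20 were higher in MET KO + EGFRi. Their summed signal ran from 535523 to 657862 in MET KO + EGFRi and from 255522 to 394315 in control over the 4 days. The median difference of the 20 genes was 1.46, 0.99, 1.04 and 0.93 on the 4 days. Saa1 read 42623, 49441, 56587 and 13192 in MET KO + EGFRi and 1516, 2612, 1045.5 and 2041 in control. It was above control on every day, with a smaller gap on day 5. Saa2 read 28584 in MET KO + EGFRi against 306 in control on day 0, and 1406 against 427 on day 5. Of the 10 Kupffer cell markers 8 were higher on day 0, where 5671 of 12112 genes were, 10 on days 1 and 2, and 9 on day 5. The median differences of these markers were 0.16, 0.73, 0.97 and 0.50 on the 4 days. Their summed signals were 28776 to 51177 in MET KO + EGFRi and 15990 to 35563 in control, with none at 0. The part of either in the enzyme values was not tested.

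Among bile acid transporters, 13 of 14 passed the filter, and 3 of them were called higher after TCPOBOP and 0 lower, against 0.421% and 0.0661% of genes. All 3 carry bile acids or organic anions across the basolateral membrane. Abcc4 had 124, 1384, 1190.5 and 1348 in MET KO + EGFRi and 26.1, 629, 1282 and 1384 in control (change 3.17, limma adjusted p = 0.00457). Abcc3 rose by 1.53 (adjusted p = 0.0179) and Slco1a4 by 1.17 (adjusted p = 0.0436). Without the day 0 array of MET KO + EGFRi or of control the adjusted p was 0.0571 and 0.0761 for Abcc4. With any 1 array left out it was 0.0191 to 0.187 for Abcc3 and 0.0659 to 0.307 for Slco1a4, while the changes stayed between 1.37 and 1.70 for Abcc3 and between 0.89 and 1.45 for Slco1a4. The Slco1a4 call was also lost with quantile normalization, the mean of probe sets, no filter and no trend (adjusted p = 0.0539 to 0.0830). The control array of day 0 reads Abcc4 below the pseudocount, and the size of its change depends on that choice, at 4.35 with none and 2.19 with the median. The canalicular export pump Abcb11 and the uptake carrier Slc10a1 had changes of 0.63 and 0.19, and Slc10a1 read below control at all 4 times (-0.30, limma adjusted p = 0.423).

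Genes with patterns most like 2 of the enzymes were sought among 3408 genes that varied at least 2-fold over the 8 arrays. For Cyp7a1 they were Pgap1, Gprin3 and Tax1bp3, with Pearson correlations of 0.953, 0.948 and 0.939 over the 8 arrays. For Cyp8b1 they were Gramd4, Mad2l2 and 4933406F09Rik, with 0.940, 0.929 and 0.919. Correlations as high as these are the best of 3408 over 8 arrays that share arms and days, and are a description only.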

How the data were processed

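The deposited intensity values are 1 signal per probe set and array, made with MAS5 per the submitters' processing notes. They are linear and not centred, and the mean after trimming 2% at each end is 500 in every array. The MAS5 version, masking and detection calls are not given in the sources used here. Each array used 6 µg of pooled total RNA, per the labels' protocols.

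The 64 control probe sets among the 45101 were set aside. Genes were named from the platform's annotation (34945 probe sets with 1 gene, 932 with several, 9160 not listed). Signals were taken as log2(signal + 71), which understates folds of weak genes. The filter kept genes whose mean log2 value reached 8.24, the median over probe sets.

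An additive model of arm plus day was fitted in limma 3.58.1 under R 4.3.3 with trended moderation (3 residual degrees of freedom), and an interaction of arm with TCPOBOP in a further fit (2 degrees). Benjamini-Hochberg adjustment ran over all 12112 genes, and an adjusted p under 0.05 was called. Single days and changes within an arm have no test. The fits were tested on simulated data with independent normal noise, and the outcome is not reported here. With 1 array per group, precision is limited by how few arrays there are.

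All 10 enzymes were named. From each other list up to 4 genes with the largest difference were named, beside fixed regulators, clock genes and transporters, and the 3 most similar genes for Cyp7a1 and Cyp8b1. Promoters came from a RefSeq table. The members and lists were chosen with earlier results of these data known. Pseudocount, normalization, probe set choice, filter, moderation and arrays left out were varied.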

Additional observations from a re-analysis of the deposited data

Results flagged for a closer look

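For 3 enzymes every later day moved one way from day 0 in MET KO + EGFRi liver and the other way in control liver. The difference between the arms in the mean change was -2.43 on the log2 scale for Cyp7b1, 1.33 for Cyp7a1 and 0.86 for Slc27a5. The limma interaction test gave adjusted p-values of 0.568, 0.999 and 0.999, so none passed. All later days of an arm are set against the same day 0 array, and 9.86% of genes showed such opposite movement.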

How the results depend on the processing

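No enzyme was called in any fitted comparison under any of the 8 alternative settings or with any 1 array left out. No paired analysis was possible because the replicate numbers pair no samples (1 array per group), beyond the comparison of arms within days that the day term already makes. The interaction could not be fitted without a day 0 array. Over all genes, leaving out 1 array gave 20 to 57 called between arms (70 with all arrays, and 20 and 21 without the MET KO + EGFRi or control array of day 1). It gave 4 to 49 for the mean change from day 0 (59 with all), 2 to 14 for day 1 (15), 2 to 7 for day 2 (7) and 3 to 36 for day 5 (40). Without the filter these counts were 28, 26, 4, 2 and 12 in the same order, where more genes were tested. The filter at the upper quartile gave 27, 16 and 76 for days 1, 2 and 5. No pseudocount gave 8 and 4 for days 1 and 2. Moderation without a trend gave 34 for the mean change, 9 for day 1 and 16 for day 5, and the mean of probe sets gave 35 for the mean change and 22 for day 5.

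At least 2-fold from day 0 in MET KO + EGFRi were 1, 2 and 3 enzymes on days 1, 2 and 5, and in control 1, 1 and 1. The mean of probe sets gave 0 on days 1 and 2 in MET KO + EGFRi, 0 on day 1 in control and 2 on day 5 in control. Quantile normalization gave 1 on day 2 in MET KO + EGFRi and 2 on day 5 in control, and the median as pseudocount 1 on day 2 in MET KO + EGFRi.

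Small differences turned sign. For the mean change from day 0, quantile normalization gave -0.039 for Baat and -0.24 for Slc27a5, and the mean of probe sets gave -0.13 for Cyp7a1 and -0.18 for Baat. With 1 array left out it ran from -0.60 to 0.73 for Cyp7a1, from -1.49 to 0.95 for Cyp7b1, from -0.094 to 0.17 for Baat and from -0.41 to 0.45 for Slc27a5. Between arms it ran from -0.51 to 0.026 for Cyp8b1, -0.077 to 0.076 for Cyp2c70, -0.048 to 0.15 for Hsd3b7, -0.060 to 0.083 for Amacr and -0.032 to 0.38 for Slc27a5. The interaction ran from -0.74 to 0.060 for Cyp8b1, -0.12 to 0.094 for Amacr and -0.011 to 0.50 for Baat. The cause was not tested.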
